A study of Mus musculus with 10 samples.

Results

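The subunits of the mitochondrial respiratory chain that are encoded in the nucleus were followed as a group in cultured mouse adipose stem and precursor cells (ASPCs). Members were the genes whose symbols begin with Nduf followed by a, b, c, s or v and a digit, with Uqcr, with Cox and a digit from 4 to 8, or with Atp5, together with Sdha, Sdhb, Sdhc and Sdhd. Pseudogene symbols with -ps were left out, and at least 100 counts were required over the 10 libraries. Of the 25229 rows of the count table, 88 fitted the names, 2 were pseudogenes and 9 fell short of the minimum, which left 77 genes. By complex, 34 belonged to complex I, 4 to complex II, 8 to complex III, 14 to complex IV and 17 to complex V. Just inside the minimum were Cox4i2 with 163 counts and Cox6b2 with 243, and just outside were Cox7a1 with 98 and Ndufa4l2 with 90. The other rows outside were Cox6a2 (29 counts), Ndufb4c (12), Cox8b (7), Ndufa11b (6) and Cox7b2, Cox8c and Ndufs5, each with 0. All 77 members also passed the filter on low counts, among 14251 genes that were tested.

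The cells were CD45-CD31-Pdgfra+ cells sorted from the perigonadal white adipose tissue (gWAT) of WT mice and grown to confluence without passaging. They received 100 nM FICZ (6-formylindolo[3,2-b]carbazole), a ligand of the aryl hydrocarbon receptor (AHR), or its vehicle DMSO, and were lysed 6 hr later for bulk RNA sequencing. There were 5 DMSO and 5 FICZ libraries, numbered 1 to 5 in each group. The age of the mice and the number of animals behind each culture are not given in the sources used here, so the p-values measure the spread between these libraries, which may be technical.

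The respiratory chain passes electrons from NADH (complex I) and succinate (complex II) through ubiquinone, complex III and cytochrome c to oxygen at complex IV, and complexes I, III and IV pump protons that ATP synthase, complex V, uses to make ATP. Each complex except complex II joins nuclear-encoded subunits, the genes counted here, to a few subunits encoded in mitochondrial DNA. Cells set the number of these complexes partly through nuclear factors such as NRF1, GABP (an ETS family factor) and YY1, while white adipose precursors are known to raise respiratory capacity as they become adipocytes.

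Promoter windows were read from RefSeq (GRCm38.p6, from 250 bases before to 50 after a transcript start), which gave a window for 64 of the 77 members. For 56 of these, the start used lay within 100 bases of the start of the gene's principal transcript. The farthest was 836 bases away, for Atp5pb. The AHR core GCGTG was searched on both strands because AHR is the receptor that FICZ binds, and it was present in 34 of the 64 windows (53.1%), against 50.5% of the 11075 windows of genes tested and 38.9% of all 18198 windows. The share among members was close to that among all genes tested. The letters GCATGCGC, part of the NRF1 motif, were in 10 windows (15.6%), against 5.2% of those of genes tested. For CCGGAAG, bound by ETS factors such as GABP, the shares were 25% and 17.5%, and for AAGATGGC, bound by YY1, 14.1% and 4.5%. A plain CCAAT box was in 43.8% of member windows and 38.6% of those of genes tested, and TATAAA in 9.4% and 7.4%. All letters were searched on both strands, and matches may overlap. A match describes letters and not a bound site.

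Below are 5 of these windows, 1 per complex. Ndufb8 and Atp5b had the highest level per transcript length in their complexes, and Cox8a stood above the median of its own. Sdhb held both motifs, and Uqcr10 had the smallest p among members of ordinary level. The windows are written 5′ to 3′ on the gene's strand, with capitals for the AHR core (GCGTG or its reverse complement) and for GCATGCGC. Ndufb8 was read from chr19:44555393-44555692 (minus strand), Sdhb from chr4:140961021-140961320 (plus), Uqcr10 from chr11:4704295-4704594 (minus), Cox8a from chr19:7217567-7217866 (minus) and Atp5b from chr10:128083057-128083356 (plus).
Ndufb8: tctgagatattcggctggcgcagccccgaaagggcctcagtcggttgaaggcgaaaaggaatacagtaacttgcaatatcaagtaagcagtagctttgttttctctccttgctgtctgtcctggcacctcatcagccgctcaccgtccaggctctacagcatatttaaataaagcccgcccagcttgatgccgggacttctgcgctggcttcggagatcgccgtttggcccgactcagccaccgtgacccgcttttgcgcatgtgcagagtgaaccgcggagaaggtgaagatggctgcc
Sdhb: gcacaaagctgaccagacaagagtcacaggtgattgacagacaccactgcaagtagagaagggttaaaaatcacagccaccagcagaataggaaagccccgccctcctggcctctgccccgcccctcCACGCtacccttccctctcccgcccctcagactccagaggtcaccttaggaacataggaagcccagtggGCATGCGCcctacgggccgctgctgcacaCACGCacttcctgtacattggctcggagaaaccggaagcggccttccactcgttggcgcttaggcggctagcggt
Uqcr10: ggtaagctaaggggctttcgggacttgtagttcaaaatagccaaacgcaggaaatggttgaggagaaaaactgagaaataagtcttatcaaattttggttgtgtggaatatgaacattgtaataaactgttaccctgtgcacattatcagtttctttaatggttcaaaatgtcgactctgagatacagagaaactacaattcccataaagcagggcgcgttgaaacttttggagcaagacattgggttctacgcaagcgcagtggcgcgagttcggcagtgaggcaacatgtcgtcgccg
Cox8a: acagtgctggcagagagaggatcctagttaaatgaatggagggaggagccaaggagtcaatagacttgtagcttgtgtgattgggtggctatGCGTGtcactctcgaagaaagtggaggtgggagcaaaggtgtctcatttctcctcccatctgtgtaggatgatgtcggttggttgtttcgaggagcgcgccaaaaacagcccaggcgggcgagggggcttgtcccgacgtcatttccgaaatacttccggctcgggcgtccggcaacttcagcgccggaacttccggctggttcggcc
Atp5b: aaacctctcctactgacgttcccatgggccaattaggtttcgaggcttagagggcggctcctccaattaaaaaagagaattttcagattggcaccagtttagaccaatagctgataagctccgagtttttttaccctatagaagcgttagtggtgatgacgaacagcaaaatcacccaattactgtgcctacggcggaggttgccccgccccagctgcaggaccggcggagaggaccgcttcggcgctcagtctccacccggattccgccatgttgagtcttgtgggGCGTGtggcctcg
The Sdhb window had AHR cores beginning at -123 and -25, with GCATGCGC at -54, counted from the transcript start. The Cox8a core began at -158 and that of Atp5b at 38, while the Ndufb8 and Uqcr10 windows held neither set of letters.

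Totals ranged from 38328611 to 50210111 counts per library, so that 3 counts correspond to between 0.0603 and 0.0787 CPM (counts scaled to a common library size with TMM factors), which covers counting error only. All 11 ASPC markers, Pdgfra and Dcn among them, were counted, with summed levels of 10332 to 15433 CPM. The 7 adipocyte markers summed to between 9.78 and 36.4 CPM, with Lep at 0 in every library, and the 4 brown adipocyte markers to between 4.41 and 13.1 CPM. DMSO replicate 5 stood apart from the other libraries. Its 12 hepatocyte markers summed to 8814 CPM against 1288 to 3598 CPM elsewhere, each of the 12 being highest there, and 8 of the 9 macrophage markers were also highest there (58.8 against 24.3 to 36.9 CPM in sum). Results are therefore given with and without this library where it matters. For the hepatocyte markers, DMSO replicates 1 and 4 came next with 3598 and 3257 CPM, and the highest FICZ library had 1964 CPM. In bulk RNA, fewer cells of a type and less RNA per cell cannot be told apart.

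Respiratory chain transcripts were abundant in these cells. The 77 members summed to 8096 ± 216 CPM with DMSO and 7997 ± 579 with FICZ (SD over 5 libraries), between 0.755% and 0.898% of all counts. Complex V held the largest share of this, with 3448 ± 55.0 CPM in DMSO, and Atp5b, the catalytic β subunit of ATP synthase, alone gave 15.0% of the whole sum. Per transcript length, as reads scaled to length and depth (RPKM), the median member stood at 81.7 RPKM. The complex medians were 61.0 RPKM for complex I, 79.3 for complex II, 90.5 for complex III, 146 for complex IV and 129 for complex V.

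**Figure D1:**
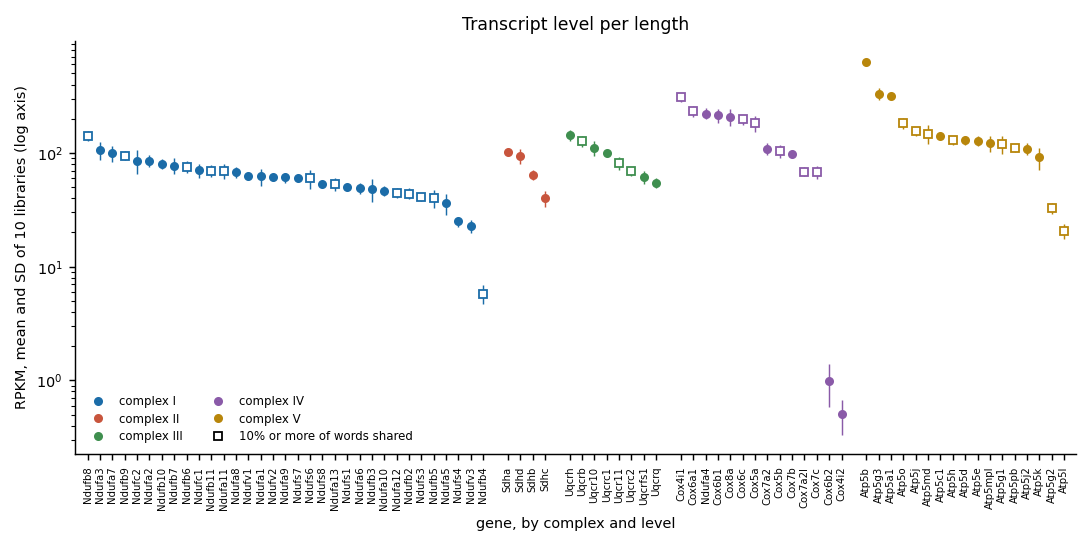
Level per transcript length of 76 of the 77 members (RPKM on a log axis), as the mean and SD of all 10 libraries, ordered within each complex, with open squares for genes that share 10% or more of their 50-base words with other genes. Most members lie between Atp5l at 20.8 and Atp5g3 at 332 RPKM, with Atp5b above at 629 and Cox4i2, Cox6b2 and Ndufb4 below at 0.504, 0.990 and 5.79 RPKM.

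Among members, the highest levels per length were Atp5b at 629 ± 34.5 RPKM, Atp5g3, which encodes the c subunit of the rotor ring, at 332 ± 39.8, Atp5a1, the α subunit of the F1 head, at 315 ± 12.6, and Cox4i1, the ubiquitous isoform of subunit 4, at 309 ± 30.8 (SD over 10 libraries). The last 3 did not differ beyond their spread. In complex I, Ndufb8, an accessory subunit of the membrane arm, led at 141 ± 13.9 RPKM, above the accessory subunit Ndufa3 at 106 ± 19.2. In complex III the hinge protein Uqcrh (143 ± 15.5) and Uqcrb (127 ± 14.4) overlapped, above Uqcrq at 54.8 ± 5.77. This order depends on the length of 1 chosen transcript per gene, 1521 bases for Uqcrq against 547 for Uqcrh and 535 for Uqcrb. Without scaling to length, Uqcrq had mean levels of 86.4 CPM in DMSO and 80.4 in FICZ. Uqcrh had 76.5 and 79.7, and Uqcrb, with 43.4% of its words shared, 67.5 and 68.5 CPM. In complex II the flavoprotein Sdha stood at 102 ± 8.36 RPKM and the membrane anchor Sdhd at 94.1 ± 14.4, within each other's spread. The iron-sulfur subunit Sdhb stood at 64.6 ± 6.15 and the other anchor, Sdhc, at 40.2 ± 6.41. The place of Sdhc likewise depends on its chosen transcript, with 3171 bases against 1231 for Sdhd and 1142 for Sdhb. In mean CPM with DMSO, Sdhc had 133, Sdhd 120 and Sdhb 75.3.

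Where a subunit has isoforms, the ubiquitous one was the one expressed. Cox4i1 had 227 to 250 CPM in DMSO replicates 1 to 4 and 190 CPM in replicate 5, whereas Cox4i2, its hypoxia- and lung-associated counterpart, had 0.321 to 0.583 CPM across DMSO. Cox6a1 had 113 to 161 CPM over all libraries, and the muscle isoform Cox6a2 at most 0.275. Cox6b1 ranged from 115 to 180 CPM, and Cox6b2, known from testis, from 0.258 to 0.924. The widely expressed Cox7a2 had 58.4 to 89.8 CPM and its muscle isoform Cox7a1 0.141 to 0.445. The related Cox7a2l, a factor of respiratory supercomplexes, had 67.9 to 87.1 CPM. Cox7b (89.2 to 113 CPM) and Cox8a (94.7 to 163 CPM) were likewise present. Cox7b2 and Cox8c, both testis isoforms, had no count in any library, which allows at most 3 counts per library, and Cox8b, an isoform of muscle and brown fat, had 7 counts in all. Ndufa4, a subunit of complex IV in spite of its name, had 119 to 167 CPM, and its hypoxia-induced relative Ndufa4l2 0.0804 to 0.344. Of the 3 genes that encode the same mature c subunit, Atp5g3 had the highest values with 190 to 293 CPM. Atp5g1 had 57.3 to 105 and Atp5g2 19.7 to 28.3 CPM, an order limited by sequence sharing, as given below.

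Many of these genes have processed pseudogenes, so their counts depend on how reads with several alignments were treated, which is not given in the sources used here. Of the 77 members, 30 (39.0%) shared at least 10% of their 50-base words with other transcripts, against 19.2% of 14026 genes tested with a matched transcript. Their median transcript length was 745 bases, against 2850 for those genes. Words were matched on either strand and to any other gene, so the share does not count pseudogenes alone. For some members the main partner was another named gene, such as Emc8 for Cox4i1, Gabpa for Atp5j and Mrpl47 for Ndufb5. The share was 87.4% for Atp5g2, 84.8% for Atp5l (subunit g of ATP synthase), 66.0% for Atp5g1, 53.0% for Cox7c and 37.0% for Ndufb4. The levels of these genes are uncertain. The low level of Atp5l (20.8 ± 3.11 RPKM) and of Ndufb4 (5.79 ± 1.09 RPKM) stood beside such shares, although over the group the median level was 78.8 RPKM with sharing and 85.1 without. Among the c subunit genes Atp5g3 shared none of its words, unlike Atp5g1 and Atp5g2, so their order in level is uncertain as well. Ndufs5, with 0 counts in every library, is a complex I subunit whose pseudogene row Ndufs5-ps held 564 counts, and the part of sharing in this was not tested.

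No change of a respiratory chain transcript with FICZ was detected beyond the spread of the libraries. None of the 77 members passed an adjusted p of 0.05 in edgeR's quasi-likelihood test, with Benjamini-Hochberg adjustment over all genes tested (adjusted p = 0.999 for each member). Of all genes tested, 0.0211% were called. These were 3 targets of AHR, all higher with FICZ. They were Ahrr, the AHR repressor, Tiparp, and Cyp1a1, a detoxifying cytochrome P450 with 11.6 to 42.9 CPM in DMSO and 144 to 355 in FICZ. At an unadjusted p of 0.05 or less the count was 1 member, Cox4i2, which was lower, against 4.82% of all genes in either direction and 3.49% in the lower. With a block for the replicate number, 0 members were called (0.0561% of all genes), and none reached an unadjusted p of 0.05 (4.65%). DESeq2 likewise called 0 members (0.0845% of genes), with 0 at an unadjusted p of 0.05 or less (4.89%). No member had its FICZ libraries entirely above or below its DMSO libraries, while 0.351% of genes tested were apart in the higher direction and 0.119% in the lower.

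The fold changes of members were small and measured more tightly than those of most genes. The log2 fold change (FICZ over DMSO) was above 0 for 29 members and below 0 for 48, with a median of -0.04 and quartiles of -0.10 and 0.03, beside a median of 0.01 for all genes tested, of which 46.2% were below 0. With Alb, the albumin gene and a hepatocyte marker, as a covariate, 42 members were above 0 and 35 below, with a median of 0.01. The tally of signs thus turned with the adjustment. The hepatocyte markers, Alb among them, summed to 1315 to 8814 CPM in DMSO and 1288 to 1964 CPM in FICZ. The adjustment, here and below, may therefore also take up part of the difference between treatments. The median standard error was 0.105, against 0.136 for all genes. The 95% interval lay inside a change of 0.5 on the log2 scale in either direction for 71 of the 77 members. The exceptions were Ndufa5, Ndufb3, Ndufb4, Ndufc2, Cox4i2 and Cox6b2, and only the last pair went past 1, a 2-fold change. By complex, the median log2 fold change was 0.02 for complex I, -0.08 for complex II, -0.03 for complex III, -0.09 for complex IV and -0.07 for complex V.

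**Figure D2:**
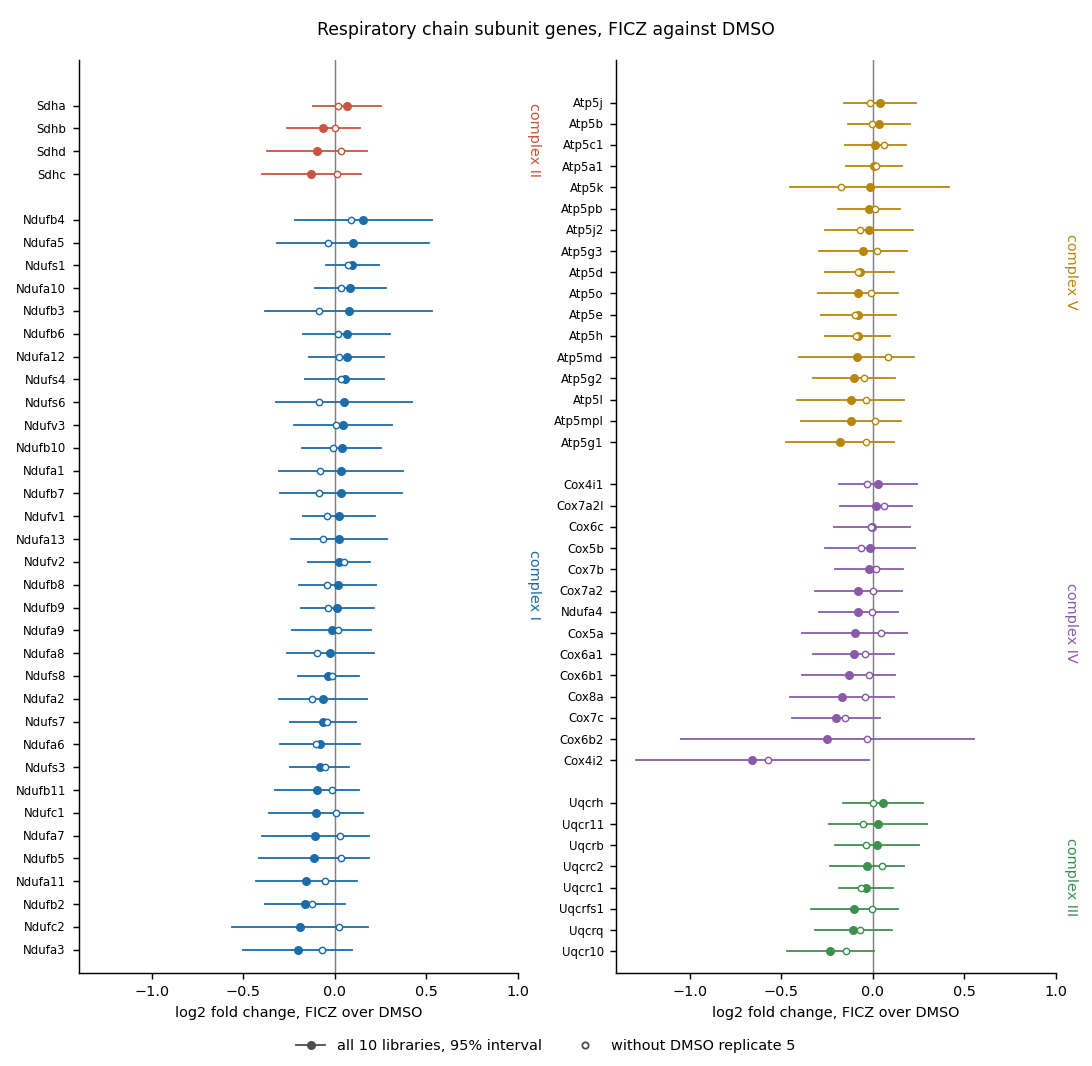
Log2 fold change (FICZ over DMSO) of 76 of the 77 members, by complex. Filled points with bars give the estimate and 95% interval from all 10 libraries, and open points the estimate without DMSO replicate 5. The interval of Cox4i2 alone lies off 0, from -1.29 to -0.02, and the interval includes 0 for every other member.

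In complex I, 19 members were above 0 and 15 below with all libraries. The tally was 14 and 20 without DMSO replicate 5, 6 and 28 without FICZ replicate 1, and 17 and 17 with Alb as a covariate. Of all genes tested, 53.8% were above 0 with all libraries, and 51.6%, 53.1% and 52.9% in those settings. The 7 core subunits, which carry the flavin and iron-sulfur clusters, had a median log2 fold change of 0.02, and the 27 accessory subunits 0.01. The smallest p of the complex was that of the accessory subunit Ndufb2, with 20.7, 19.4, 20.4, 21.7 and 23.5 CPM in DMSO and 22.8, 18.1, 19.0, 16.3 and 18.3 CPM in FICZ. It was lower with FICZ in 4 of the 5 numbered pairs, FICZ replicate 1 being the exception (log2 fold change -0.16, 95% interval -0.38 to 0.06, exact permutation p = 0.103). Ndufb8 had 80.0 to 102 CPM in DMSO and 86.3 to 114 with FICZ (log2 fold change 0.02, 95% interval -0.20 to 0.23, and -0.04 without DMSO replicate 5). For Ndufa3 the ranges were 48.9 to 78.8 and 42.4 to 60.0 CPM. The log2 fold change was -0.20 with all libraries and -0.07 without DMSO replicate 5, the highest library. Ndufb4, the member with the highest fold change, had 4.25 to 7.47 CPM in DMSO and 5.13 to 7.03 CPM in FICZ (log2 fold change 0.16, 95% interval -0.22 to 0.53, and 0.09 without DMSO replicate 5), and its level is uncertain, as above.

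In complex II, Sdha had 284, 305, 290, 319 and 251 CPM in DMSO and 313, 305, 283, 280 and 337 in FICZ, with overlapping groups (log2 fold change 0.07, 95% interval -0.12 to 0.26). Sdhb had 74.5, 71.0, 67.0, 75.9 and 88.4 CPM in DMSO and 81.9, 69.3, 64.9, 71.3 and 73.2 CPM in FICZ (log2 fold change -0.06, 95% interval -0.26 to 0.14). Sdhc had 117 to 130 CPM in DMSO replicates 1 to 4, 182 CPM in DMSO replicate 5 and 114 to 135 CPM in FICZ, and Sdhd 106 to 114, 162 and 97.1 to 124 CPM. Both anchors were highest in DMSO replicate 5 and Sdha was lowest there. The log2 fold changes were -0.13 for Sdhc and -0.10 for Sdhd, and 0.01 and 0.03 without that library, which also moved Sdha to 0.02 and Sdhb to 0.00.

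Complex III held the member with the smallest p among those at an ordinary level. Uqcr10, a small subunit of the complex, had 55.0, 45.5, 47.8, 48.5 and 64.3 CPM in DMSO and 50.1, 43.1, 41.0, 48.2 and 39.9 in FICZ. It was lower with FICZ in all 5 numbered pairs, although the groups overlapped. Of the 77 members this 1 (1.3%) went one way in every pair, against 7.12% of all genes tested. The log2 fold change was -0.23 (standard error 0.11, 95% interval -0.47 to 0.01, exact permutation p = 0.0714) and -0.15 without DMSO replicate 5. Uqcrh had 64.5 to 84.2 CPM in DMSO and 72.7 to 97.2 CPM in FICZ, and Uqcrb 56.4 to 76.4 and 61.6 to 84.0 CPM, with log2 fold changes of 0.06 and 0.02 (0.00 and -0.04 without DMSO replicate 5). Uqcrc1 and Uqcrc2, the core proteins, and Uqcrfs1, the Rieske iron-sulfur protein, had log2 fold changes of -0.04, -0.03 and -0.10 (-0.07, 0.05 and -0.01 without it). For Uqcrq it was -0.11, with 76.9 to 94.8 CPM in DMSO and 70.4 to 90.8 CPM in FICZ.

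In complex IV, 12 of the 14 members were below 0 with all libraries, against 46.2% of all genes tested. The number was 10 without DMSO replicate 5 (48.4% of all genes), all 14 without FICZ replicate 1 (46.9%) and 4 with Alb as a covariate (47.1%). With Alb the complex median went from -0.09 to 0.02. Cox4i2 had 0.341, 0.583, 0.321, 0.438 and 0.554 CPM in DMSO and 0.234, 0.191, 0.378, 0.322 and 0.3 in FICZ. Only FICZ replicates 3 and 4 reached into the DMSO range. The log2 fold change was -0.66 (standard error 0.29, 95% interval -1.29 to -0.02, unadjusted p = 0.0441, exact permutation p = 0.0476), at a level near the floor of 3 counts. The unadjusted p was 0.0827 with the replicate block and 0.0893 without DMSO replicate 5 in edgeR's quasi-likelihood test. Cox7c, a single-gene subunit, had 33.1 to 44.4 CPM in DMSO and 30.2 to 41.8 CPM in FICZ (log2 fold change -0.20, 95% interval -0.44 to 0.04, exact permutation p = 0.119), with over 50% of its words shared. Cox8a had 114, 107, 106, 117 and 163 CPM in DMSO and 126, 94.7, 115, 107 and 97.8 in FICZ. The log2 fold change was -0.17, or -0.04 without DMSO replicate 5. Of the other ubiquitous isoforms, Cox4i1 (0.03), Cox6a1 (-0.10), Cox6b1 (-0.13), Cox7a2 (-0.08), Cox7b (-0.02) and Ndufa4 (-0.08) had intervals of the log2 fold change that included 0, as did Cox7a2l (0.02) and Cox6b2 (-0.25). Without DMSO replicate 5 the values were -0.03 for Cox4i1, -0.04 for Cox6a1, -0.02 for Cox6b1, 0.00 for Cox7a2, 0.02 for Cox7b, -0.01 for Ndufa4, 0.06 for Cox7a2l and -0.03 for Cox6b2.

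In complex V, 4 of 17 members were above 0 with all libraries, against 53.8% of all genes tested. The number was 6 without DMSO replicate 5 (51.6% of all genes), 1 without FICZ replicate 1 (53.1%) and 8 with Alb as a covariate (52.9%). With Alb the complex median went from -0.07 to 0.00. In the DMSO libraries Atp5b had 1223, 1242, 1210, 1219 and 1055 CPM, and 1311, 1216, 1216, 1146 and 1204 in the FICZ libraries, with overlapping groups and a log2 fold change of 0.04 (95% interval -0.14 to 0.20), or -0.01 without DMSO replicate 5. The 5 genes of the F1 head had a median log2 fold change of 0.01, the 4 of the peripheral stalk -0.05, the 3 of the c ring -0.10 and the 5 of the membrane part -0.09. Without DMSO replicate 5 these medians were -0.01, -0.01, -0.04 and -0.04, in that order. Atp5g1, with the smallest p, had 71.5, 63.8, 67.2, 73.0 and 105 CPM in DMSO and 73.0, 63.2, 72.8, 69.6 and 57.3 in FICZ. Without the high DMSO replicate 5 its log2 fold change went from -0.18 to -0.04. Atp5g2 and Atp5g3 had -0.10 and -0.05, and Atp5l -0.12 (10.2 to 14.4 CPM in DMSO, 9.51 to 13.8 CPM in FICZ). Without that library they had -0.05, 0.03 and -0.04.

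**Figure D3:**
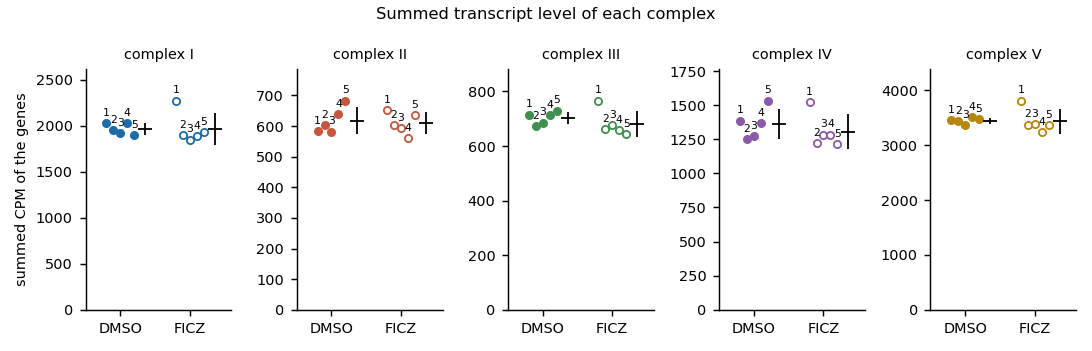
Summed CPM of the members of each complex, 1 point per library with its replicate number (filled for DMSO, open for FICZ), with the mean and SD of each group at its right. FICZ replicate 1 is the highest FICZ library in every complex, and DMSO replicate 5 is the highest DMSO library in complexes II, III and IV.

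Summed by complex, the groups overlapped everywhere. Complex I had 1964 ± 62.2 CPM in DMSO and 1967 ± 173 in FICZ, complex II 618 ± 42.9 and 609 ± 35.7, complex III 703 ± 22.6 and 681 ± 48.6, complex IV 1363 ± 112 and 1306 ± 126, and complex V 3448 ± 55.0 and 3433 ± 220 (SD, n = 5). Differences between the means were smaller than the SD of at least 1 group in each case.

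The members varied between libraries in 2 ways that did not follow treatment. In DMSO replicate 5 they moved apart from one another, though less than genes in general. The log2 difference from the median of the other 9 libraries had an SD of 0.429 over members and 0.741 over all genes tested. This library was the highest of the 10 for 32 of 77 members (41.6%, against 28.3% of all genes tested). It was the lowest for 26 (33.8%, near the 29.4% of all genes tested). Complex I was mostly low there, with 16 members lowest and 9 highest, and complex IV mostly high, with 1 lowest and 8 highest. Relative to the other 9 libraries, the median log2 difference was -0.19 for complex I, 0.44 for complex II, 0.04 for complex III, 0.34 for complex IV and 0.16 for complex V. Within complex I the core subunits stood at 0.11 and the accessory ones at -0.21, and within complex V the F1 head stood at 0.03 and the membrane part at 0.43. The accessory subunit Ndufc2 had 97 CPM in this library and 48.9 to 63.4 CPM in the other 9. In the opposite direction, Ndufb3, also accessory, had 19.0 CPM against 28.1 to 49.2, Ndufs6 20.3 against 30.1 to 43.9, Ndufa1 17.4 against 21 to 33.5, and Atp5k, subunit e of ATP synthase, 18.6 against 27.4 to 46.2. The median transcript length was 632 bases for the 32 members highest there, 835 for the 26 lowest and 931 for the other 19, with median GC contents of 51.1%, 53.0% and 50.5%. Ribosomal protein genes were low in the same library, with a median of -0.32 for cytosolic and -0.22 for mitochondrial ones. The hepatocyte and macrophage markers were high in this library, as given above, and their part in these differences was not tested.

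**Figure D4:**
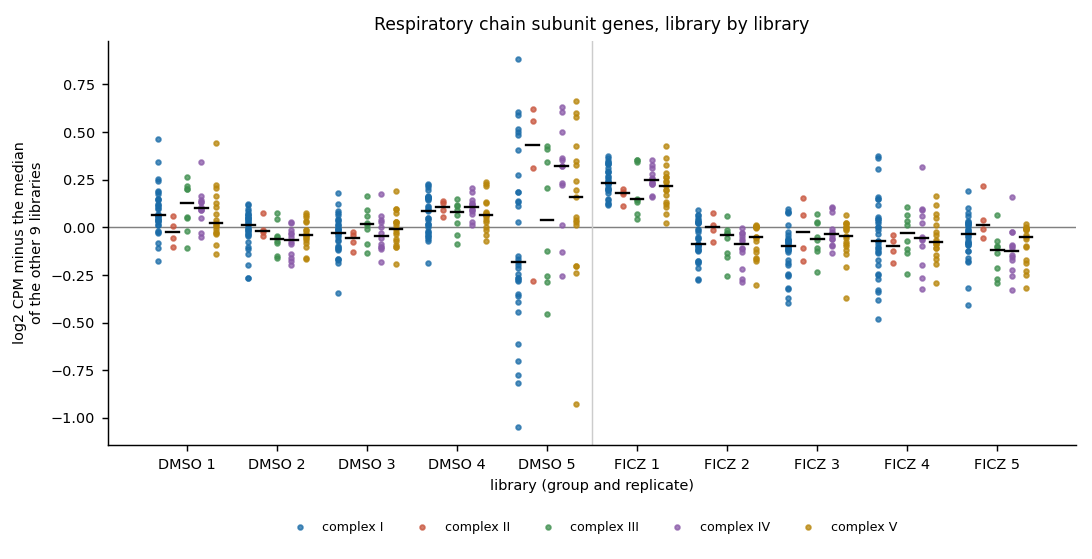
Log2 CPM of each member minus its median in the other 9 libraries, by library and complex, for 74 of the 75 members with over 1000 counts in all, with a black line at the median of the points of each complex. In DMSO replicate 5 the points spread from about -1.05 to 0.88. The medians of complexes I and IV lie on opposite sides of 0 there, although each complex has points on both sides. In FICZ replicate 1 nearly all points lie above 0.

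Without DMSO replicate 5 the differences between complexes narrowed. The median log2 fold change of all members went from -0.04 to -0.02, that of complex I from 0.02 to -0.03, complex II from -0.08 to 0.02, complex IV from -0.09 to -0.03 and complex V from -0.07 to -0.01. Complex III had -0.03 with it and -0.05 without it. Without this library 0 members were called, against 0.028% of all genes, and at an unadjusted p of 0.05 or less the count was also 0, against 2.39%.

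FICZ replicate 1 showed the other pattern, a nearly even rise. It was the highest library for 36 members (46.8%, against 11.9% of all genes tested) and the lowest for 1. The median log2 difference from the other libraries was 0.23 over all members, between 0.15 and 0.24 in each complex. Its SD over members was 0.165, against 0.429 in DMSO replicate 5, and over all genes tested 0.311 against 0.741. Its members summed to 9027 CPM, against 7627 to 8310 CPM in the other 9 libraries. Mitochondrial and cytosolic ribosomal protein genes also stood high in it, with medians of 0.22 and 0.25, whereas all genes tested had 0.02. Without FICZ replicate 1 the fold changes moved down. The median log2 fold change went from -0.04 to -0.10 over all members, from 0.02 to -0.05 in complex I, from -0.08 to -0.12 in complex II, from -0.03 to -0.06 in complex III, from -0.09 to -0.14 in complex IV and from -0.07 to -0.12 in complex V. Then 69 of the 77 members were below 0, against 46.9% of all genes tested. Leaving out DMSO replicate 5 moved the median of all members the other way. Without FICZ replicate 1, 4 members had an unadjusted p of 0.05 or less, all lower with FICZ, against 2.44% of all genes in the lower direction and 3.69% in either. These were Cox7c (log2 fold change -0.28), Ndufb2 (-0.24), Uqcr10 (-0.28) and Atp5h, a peripheral stalk subunit (-0.15). After adjustment 0 were called, against 0.00696% of all genes.

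Genes that work with the chain also had 0 calls. As only 0.0211% of all genes tested were called, 0 calls in lists of this size say little about these genes. None was called among the assembly factors of complex I (15 tested), complex II (4), complex III (6), complex IV (20) and complex V (4), nor among 12 regulators of mitochondrial biogenesis, 13 enzymes of the TCA cycle, and 78 mitochondrial and 78 cytosolic ribosomal protein genes. Their median log2 fold changes were 0.02, 0.03, 0.00, -0.03, 0.00, 0.01, 0.02, 0.04 and 0.03, in that order. Of the regulators, Tfam, which packages and transcribes mitochondrial DNA, had 34.7 ± 3.69 CPM with DMSO and 38.8 ± 4.09 with FICZ (log2 fold change 0.16, standard error 0.10). Ppargc1a, the coactivator PGC-1α, was near 1 CPM, with 1.09 ± 0.717 and 0.727 ± 0.379 CPM. The largest difference among assembly factors was that of Cox16, at 2.24 ± 1.04 and 1.41 ± 0.563 CPM (log2 fold change -0.68, standard error 0.36). Respiratory chain genes whose symbols lie outside the name patterns were also not called, with log2 fold changes of -0.08 for the cytochrome c1 gene Cyc1, 0.05 for the cytochrome c gene Cycs, -0.09 for the complex I subunit Ndufab1 and 0.18 for Atpif1, the inhibitor of ATP synthase. The 13 subunits encoded in mitochondrial DNA had no row under their mt- symbols in the count table, so they were not analysed here.

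The median log2 fold change was -0.07 for the 34 members whose window held the AHR core and -0.03 for the 30 without it. For GCATGCGC the medians were -0.07 for 10 members and -0.03 for the other windows. With and without the letters, they were -0.08 and -0.02 for CCGGAAG and -0.07 and -0.02 for CCAAT. For TATAAA they were -0.10 and -0.03, and for AAGATGGC -0.02 and -0.06. These medians are descriptions, and their differences were not tested.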

How the data were processed

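RNA libraries of cultured ASPCs (5 DMSO, 5 FICZ) were compared. Per the paper's methods and the submitters' processing notes, the authors aligned reads with STAR 2.7.7 to mm10 and gave counts to DESeq2. The deposited values are raw counts per gene symbol, not normalized. The counting program, annotation and handling of strand and of multiple alignments are not given in the sources used here. The members and lists were chosen with earlier results of these data known.

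Counts were tested with edgeR 4.0.16 (R 4.3.3; quasi-likelihood, TMM, filter by expression, robust dispersions), with Benjamini-Hochberg adjustment over 14251 genes and a threshold of 0.05. For single genes, log2 CPM (prior count 2) was permuted exactly over the 252 arrangements of the libraries, two-sided, with a smallest possible p of 0.00794. Alternatives were DESeq2 1.42.0, limma-voom (limma 3.58.1), other scalings and filters, Alb as a covariate, and leaving out libraries. Same-numbered libraries deviated together (correlations across genes of 0.1536 to 0.3172, mean 0.2517, against -0.0599 for different numbers), so the replicate block was applied as an alternative.

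RPKM used TMM-scaled CPM and the length of 1 principal transcript from GENCODE M21 (GRCm38), which matched 96.57% of symbols. Shared words were the 50-base words of that transcript found, on either strand, in other genes' transcripts. Promoters came from RefSeq GRCm38.p6, choosing the start nearest to that transcript's. Named genes were the Sdh genes, the highest and lowest in level and smallest in p of each complex, and the isoform families. Ndufc2, Ndufb3, Ndufs6, Ndufa1, Atp5k, Atp5h, Cox7c, Ndufs5, the genes whose intervals were named and the core subunits of complex III were named after their values were seen, as were the 5 windows printed. Values of 1 member are not reported here singly.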

Additional observations from a re-analysis of the deposited data

Results flagged for a closer look

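In 16 of 66 groups of 5 libraries checked (33 values in each of 2 treatments), 1 library lay farther from its nearest neighbour than 0.71 of the group's range, Dixon's limit for 5 samples. Chance flags about 1 in 20 groups, or 3.3 of 66. DMSO replicate 5 accounted for 8. It was the highest DMSO library for Sdhd (gap of 0.869 of the range), Sdhc (0.809), Cox8a (0.801), Atp5g1 (0.778), Ndufa3 (0.746) and Cox7a2 (0.737), and the lowest for Atp5b (0.829) and Ndufb8 (0.739). FICZ replicate 1 accounted for the other 8, each time as the highest FICZ library. These were Cox4i1 (0.911), Uqcrb (0.748) and Uqcrh (0.737), the summed level of all members (0.889) and the sums of complex I (0.813), complex IV (0.778), complex V (0.752) and complex III (0.724). The sums are made of the same genes, so these values are not separate evidence.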

How the results depend on the processing

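The count of members past the threshold was 0 in every one of its 26 alternatives. The medians were less stable in sign. Over their alternatives the median log2 fold change lay between -0.10 and 0.01 for all members (-0.04 with all libraries), between -0.05 and 0.04 for complex I (0.02), between -0.12 and 0.04 for complex II (-0.08), between -0.07 and -0.01 for complex III (-0.03), between -0.14 and 0.02 for complex IV (-0.09) and between -0.12 and 0.00 for complex V (-0.07). Of 646 values of 27 single genes, 0 changed their call. The number of members at an unadjusted p of 0.05 or less, 1 with all libraries, was 0 with the replicate block, in DESeq2 with and without the block, in limma-voom with the block, with Alb as a covariate, without both libraries numbered 5, and with the block but without both of these, a setting chosen after seeing the data. It ranged from 0 to 4 when single libraries were left out. It was 4 without FICZ replicate 1, 2 without DMSO replicate 2 or 3, and 0 without DMSO replicate 4 or 5 or FICZ replicate 2, 4 or 5. Over all genes the share at this p was 4.82% with all libraries, 4.65% with the block and 4.89% in DESeq2. It was 2.39% without DMSO replicate 5 and 3.69% without FICZ replicate 1. For the other settings no such share was taken, so their counts on members cannot be set against one. The gene also depended on the filter, being Cox4i2 with edgeR's filter and Uqcr10 (unadjusted p of 0.0486 and 0.0454) with no filter or with at least 1 CPM in 5 libraries. Over all genes, 3 were called without the replicate block, 8 with it and 16 in DESeq2. The block, which pairs the libraries by number, changed no other call on members. Depth limits only Cox4i2 and Cox6b2, at under 1 CPM, and sequence sharing limits the levels of 30 members.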
